A study of Homo sapiens with 4 samples.

Results

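The cohesin complex and the insulator protein CTCF were followed through 10 genes, chosen by name as the subunits of the ring (SMC1A, SMC3, RAD21, STAG1 and STAG2), the proteins that load it or bind it on chromatin (NIPBL, WAPL, PDS5A and PDS5B) and CTCF itself. All 10 were found among the 60564 gene identifiers of the count tables, and all 10 were among the 22555 genes with enough counts to be tested. RNA was taken from Elf1, an established naïve human ESC line, either grown adherent in 2-D on Matrigel coated plastic or grown for 21 days in 3-D in scaffolds of PEG-8-SH and PEG-8-Acr, which are gels that form when polyethylene glycol polymers carrying thiol and acrylate ends react with each other. There were 2 libraries per condition, described in the study's methods as independent biological replicates. Both conditions used the ESC expansion medium, which the methods describe as supplemented with FGF2, LIF, CHIR99021 and PD03296501, and the cells, kept on mouse feeders beforehand, had been moved to feeder-free culture before encapsulation. All 4 libraries came from 1 cell line. The study describes routine passaging of 2-D cultures, whereas the 3-D cells stayed in the scaffold for 21 days, so geometry, substrate and time without passaging cannot be told apart.

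Cohesin is a ring-shaped protein complex that encloses DNA. SMC1A and SMC3 form the long arms of the ring, RAD21 closes it, and either STAG1 or STAG2 is docked onto RAD21. The ring holds sister chromatids together from replication until division, and in interphase it extrudes chromatin into loops until it meets CTCF, a zinc-finger protein bound to its own DNA motif. NIPBL, working with MAU2, loads cohesin and drives loop extrusion, WAPL takes it off again, and PDS5A and PDS5B bind the ring and take part in both its release and its stable binding. In embryonic stem cells, cohesin and CTCF are known for the loops and domains that bring enhancers of pluripotency genes to their promoters.

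Assigned counts summed to 33833778 and 30114220 for 2-D grown cells and to 21154409 and 18276147 for 3-D grown cells. Counts of single members lay between 1180 and 14908 per library, where counting alone gives a relative error of 2.91% at the lowest and 0.819% at the highest. Values per library are given below as CPM, the count of a gene relative to the size of its library, scaled by TMM, a normalization that centres the bulk of genes between libraries. Genes were tested with edgeR's quasi-likelihood fit, p-values were adjusted over the whole table (Benjamini-Hochberg), a gene is called at an adjusted p below 0.05, and the 95% intervals of single genes are not adjusted. The 5 core pluripotency markers POU5F1, NANOG, SOX2, LIN28A and SALL4 had 2230 to 60997 counts in every library and none was called, with 2 of them at an unadjusted p below 0.05 and none called by DESeq2, limma-trend or edgeR's likelihood ratio test. The naïve markers were uneven, with KLF17 at 16 to 29 counts and DPPA5 at 0 to 4 counts per library, and 0 of 6 tested were called, 0 at an unadjusted p below 0.05 and 0 by the same tools.

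SMC3 and SMC1A, the long arms of the ring, were higher in 3-D grown cells, by 12.2% and 9.20%, whereas RAD21, which closes the ring, was nearly level. SMC3 (ENSG00000108055, chromosome 10, 110567684 to 110606048 of hg38, plus strand) had 238 and 237 CPM in the 2-D libraries and 268 and 265 CPM in the 3-D libraries. Both 3-D values lay above both 2-D values, and the gap was many times the difference within either condition, though 2 libraries measure that difference poorly. Its log2 fold change of 3-D over 2-D was 0.17 (SE 0.029, 95% interval 0.10 to 0.23, adjusted p = 0.00425), the largest change and the smallest p among the 10 members. SMC1A (ENSG00000072501, chromosome X, 53374149 to 53422728, minus strand) had 394 and 390 CPM in 2-D and 442 and 414 CPM in 3-D. The groups did not overlap, but the 3-D libraries lay further apart, and the log2 fold change was 0.13 (SE 0.035, 95% interval 0.05 to 0.20, adjusted p = 0.0427), the least certain of the members called. RAD21 (ENSG00000164754, chromosome 8, 116845934 to 116874776, minus strand), the cleavable kleisin of the ring, had 274 and 281 CPM in 2-D and 284 and 282 CPM in 3-D. Its change of 2.12% (95% interval -2.45 to 6.90%) did not pass the test, with an adjusted p of 0.643, and the interval leaves room for a rise smaller than the one measured for SMC3. The RAD21 locus overlaps UTP23 and RAD21-AS1 on the opposite strand, which had mean levels of 46.8 and 7.83 CPM, and since the strand setting of the counting is not given in the sources used here, reads from these genes may not be fully separable. The SMC3 call was lost when either 2-D library was left out, with adjusted p-values of 0.0726 without replicate 1 and 0.0923 without replicate 2, and the SMC1A call was lost without 2-D replicate 1 (0.207), 2-D replicate 2 (0.307) or 3-D replicate 1 (0.0600). Without 3-D replicate 1 the SMC1A log2 fold change dropped from 0.13 to 0.08, and the call was also lost with edgeR's likelihood ratio test (adjusted p = 0.223), with scaling by library size only (0.288), with a minimum of 10 counts in every library (0.0588), with offsets that adjust for length and GC content (0.0607) and with the 2-D counts thinned at random to 3-D depth (0.0681).

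**Figure D1:**
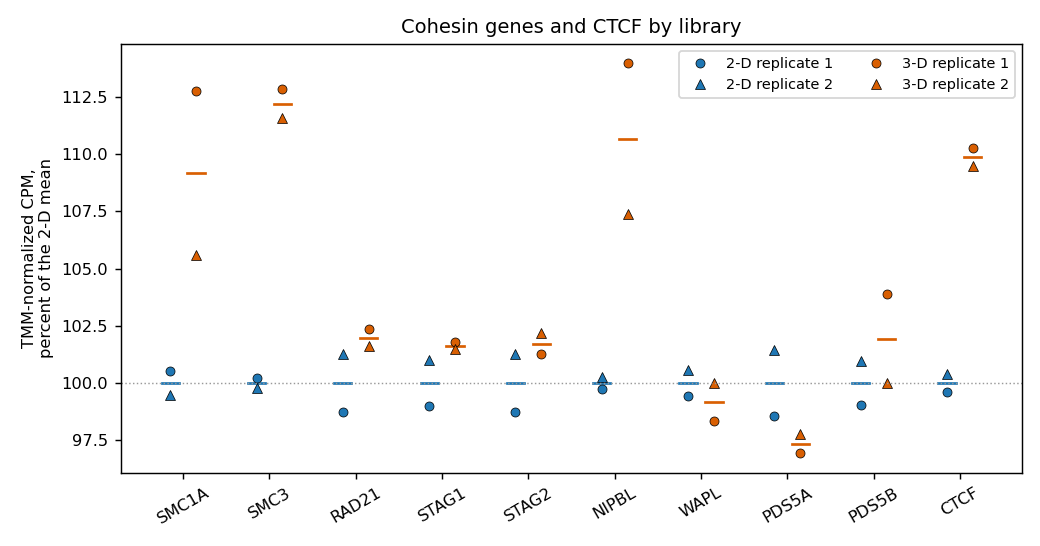
TMM-normalized CPM of the 10 members in each library, as a percentage of the mean of the 2-D libraries, with 1 point per library, a short line at each condition's mean and the dotted line at 100%. For SMC1A, SMC3, NIPBL and CTCF both 3-D points lie clearly above both 2-D points, while for RAD21, STAG1, STAG2, WAPL, PDS5A and PDS5B all points lie within a few percent of the line.

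STAG1 and STAG2, the alternative subunits that dock on RAD21, did not pass the test. STAG2 (ENSG00000101972, chromosome X, 123960212 to 124422664, plus strand) had 432 and 443 CPM in 2-D and 443 and 447 CPM in 3-D. The lower 3-D value stood just above the higher 2-D value, and the change was 1.80% (95% interval -2.71 to 6.52%, adjusted p = 0.701). STAG1 (ENSG00000118007, chromosome 3, 136336236 to 136752403, minus strand) had 64.1 and 65.4 CPM in 2-D and 65.9 and 65.7 CPM in 3-D. Its change was 1.59% (95% interval -3.95 to 7.44%, adjusted p = 0.798). Both changes were smaller than the difference between the 2-D libraries of the same gene. STAG1 overlaps PCCB on the opposite strand, at a mean of 45.4 CPM, and STAG2 overlaps TENM1 at 6.50 CPM. With library size only, the sign of both changes turned, to a log2 fold change of -0.04 for each.

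Among the proteins that act on the ring, the loader NIPBL was higher in 3-D grown cells by 10.6%, and WAPL, PDS5A and PDS5B were not called. NIPBL (ENSG00000164190, chromosome 5, 36876769 to 37066413, plus strand) had 182 and 183 CPM in 2-D and 208 and 196 CPM in 3-D. The 2-D libraries were almost equal and both 3-D libraries were above them, giving a log2 fold change of 0.15 (SE 0.034, 95% interval 0.07 to 0.22, adjusted p = 0.0204). The call was lost without 2-D replicate 1 (adjusted p = 0.187) or 2-D replicate 2 (0.136), with the likelihood ratio test, with library size only (0.159) and with thinned 2-D libraries (0.0519), and leaving out 3-D replicate 1 gave a log2 fold change of 0.10 and leaving out 3-D replicate 2 gave 0.19. MAU2, the partner of NIPBL in the loader, had 34.8 and 34.1 CPM in 2-D and 36.6 and 36.8 CPM in 3-D, and its log2 fold change of 0.09 (SE 0.057, adjusted p = 0.396) did not pass the test.

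WAPL (ENSG00000062650, chromosome 10, 86435256 to 86521792, minus strand), the release factor, had 179 and 181 CPM in 2-D and 177 and 180 CPM in 3-D. These ranges overlapped, and the change was -0.968% (95% interval -5.33 to 3.59%, adjusted p = 0.850). PDS5A (ENSG00000121892, chromosome 4, 39822863 to 39977956, minus strand) had 241 and 248 CPM in 2-D and 237 and 239 CPM in 3-D. It was the only member with both 3-D libraries below both 2-D libraries, and the change of -2.47% (95% interval -6.86 to 2.13%) had an adjusted p of 0.569. PDS5B (ENSG00000083642, chromosome 13, 32586452 to 32778019, plus strand), its paralog, had 102 and 104 CPM in 2-D and 107 and 103 CPM in 3-D. The ranges overlapped here too, with a change of 1.67% (95% interval -3.21 to 6.79%, adjusted p = 0.751), whose sign turned with library size only and without 3-D replicate 1. The intervals of these 3 genes exclude a rise of the size measured for SMC3.

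CTCF was higher in 3-D grown cells by 9.84%. CTCF (ENSG00000102974, chromosome 16, 67562467 to 67639177, plus strand) had 131 and 132 CPM in 2-D and 145 and 144 CPM in 3-D. Replicates differed by about 1 CPM in each condition, less than the difference between conditions. A gap between 2 libraries is a poor measure of spread, however. The log2 fold change was 0.14 (SE 0.029, 95% interval 0.07 to 0.20, adjusted p = 0.0130). The call was lost with DESeq2 (adjusted p = 0.113), with the likelihood ratio test (0.0871), with library size only (0.168), and without 2-D replicate 1 (0.180) or 2-D replicate 2 (0.134).

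**Figure D2:**
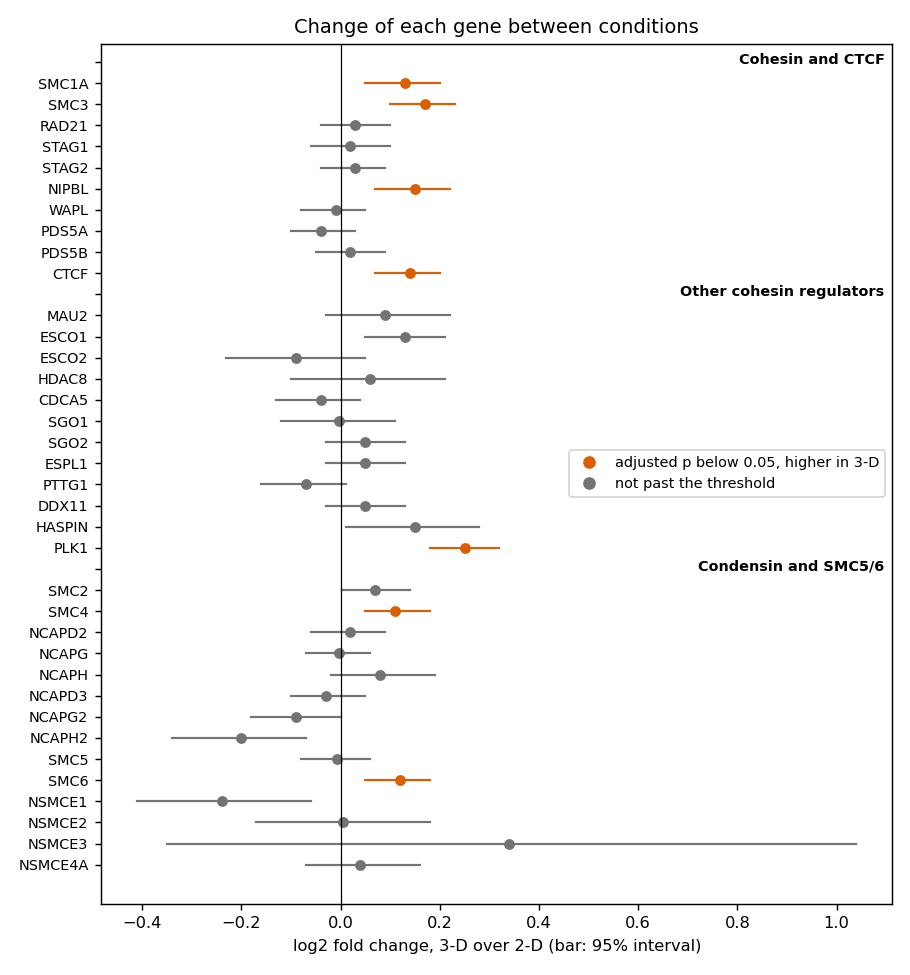
Log2 fold change of 3-D over 2-D for the members, the other cohesin regulators and the condensin and SMC5/6 genes, with 1 point per gene, bars for the 95% interval and orange for genes called higher at an adjusted p below 0.05. The called members SMC3, NIPBL, CTCF and SMC1A lie between 0.13 and 0.17, close to SMC4 and SMC6 at 0.11 and 0.12 and below PLK1 at 0.25.

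Thus 4 of the 10 members were called higher in 3-D grown cells and 0 were called lower. No member was lower at an unadjusted p below 0.05 either, and none was called lower by DESeq2, limma-trend or the likelihood ratio test. Over all tested genes, 1024 or 4.54% were called higher and 758 or 3.36% were called lower. The members were abundant, which gives the test more power, and among the 3442 tested genes with a mean of at least 65.3 CPM, the mean level of the lowest member, 18.0% were called higher. Both 3-D libraries were above both 2-D libraries for 7 of the 10 members, against 25.4% of all tested genes, and below them for 1 member, against 25.1%. These shares were not computed for the abundant genes alone, so they are not matched to the level of the members. The 7 include RAD21, STAG1 and STAG2, which changed by only 2.12%, 1.59% and 1.80%. The median log2 fold change of the members was 0.028, against -1.3e-04 over all tested genes and 0.018 over the abundant ones, and 8 members had a positive and 2 a negative fold change, but 4 of the positive values (RAD21, STAG1, STAG2 and PDS5B) turned negative with library size only. With that scaling the split over all genes was 514 higher and 1872 lower. The called members changed by 0.13 to 0.17 on the log2 scale, beside a median of 0.173 over the called higher genes that were as abundant and of 0.218 over called higher genes of any level. Counts were from bulk RNA, where fewer cells of a type and less RNA per cell cannot be told apart.

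**Figure D3:**
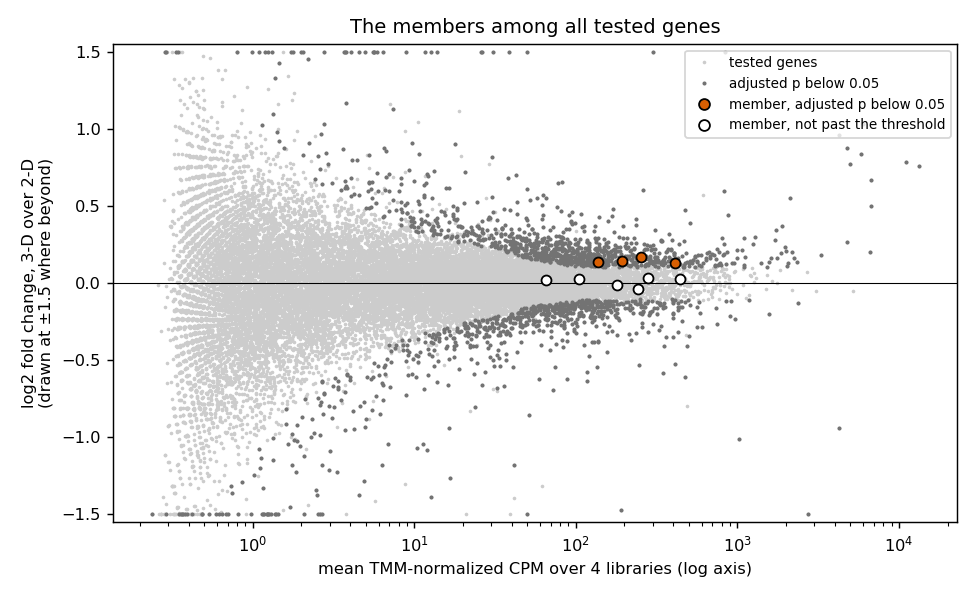
Log2 fold change of 3-D over 2-D against the mean TMM-normalized CPM on a log axis for all 22555 tested genes, with the members marked and genes beyond 1.5 in either direction drawn at the edge. The members lie among the abundant genes, and their changes, from -0.04 to 0.17, lie inside the cloud of other genes.

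The promoters of the called members are shown because their RNA levels were higher together, so that what the sequences before their starts share or lack can be read. RefSeq windows of 250 bases before the annotated start (GRCh38.p14) were at hand for 9 of the 10 members, all but RAD21, which was not called. They are printed 5′ to 3′ on the strand of the gene, and the part that lies inside the GENCODE gene, at the end of the SMC3 and CTCF windows, is left out. Capitals mark the GC box GGGCGG, the motif of Sp1-family factors, or its reverse complement CCGCCC. SMC1A is shown over chrX:53422729-53422978 (minus strand), SMC3 over chr10:110567445-110567683, NIPBL over chr5:36876519-36876768 and CTCF over chr16:67562276-67562466 (all 3 plus strand).
SMC1A: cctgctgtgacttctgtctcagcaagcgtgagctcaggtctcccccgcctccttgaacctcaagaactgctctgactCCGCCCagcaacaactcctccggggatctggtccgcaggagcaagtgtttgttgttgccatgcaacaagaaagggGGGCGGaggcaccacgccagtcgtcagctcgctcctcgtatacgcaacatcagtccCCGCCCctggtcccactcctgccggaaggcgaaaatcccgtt
SMC3: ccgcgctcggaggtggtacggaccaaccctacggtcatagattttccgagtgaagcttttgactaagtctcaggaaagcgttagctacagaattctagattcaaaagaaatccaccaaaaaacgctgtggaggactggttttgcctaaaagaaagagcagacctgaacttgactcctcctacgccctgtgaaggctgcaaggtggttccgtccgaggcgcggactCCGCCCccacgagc
NIPBL: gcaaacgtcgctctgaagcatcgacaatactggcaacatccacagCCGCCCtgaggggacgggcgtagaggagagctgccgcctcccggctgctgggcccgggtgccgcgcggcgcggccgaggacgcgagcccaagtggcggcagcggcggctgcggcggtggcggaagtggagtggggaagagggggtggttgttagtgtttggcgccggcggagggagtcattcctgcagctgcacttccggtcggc
CTCF: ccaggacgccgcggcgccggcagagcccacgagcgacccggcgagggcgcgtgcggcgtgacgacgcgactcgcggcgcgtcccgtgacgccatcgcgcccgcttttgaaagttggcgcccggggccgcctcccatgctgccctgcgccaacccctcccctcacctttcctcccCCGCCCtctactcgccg
The GC boxes begin 173, 98 and 42 bases before the start in SMC1A, 25 before it in SMC3, 205 before it in NIPBL and 76 and 62 before it in CTCF, the last of which runs past the printed stretch. A GC box was found on either strand in all 9 members with a window, called or not, and in 42.6% of the 35116 windows of all genes. The ETS core CCGGAAG was found in SMC1A and NIPBL and in 8.52% of all windows, and the E-box CACGTG in 0 of the 9 members and 6.34% of all windows. The CCAAT box CCAAT was found in 5 members, STAG1, STAG2, WAPL, PDS5A and PDS5B, none of which was called, in 0 of the 4 called members, and in 32% of all windows. SMC1A and STAG2 have more than 1 window, and a motif was counted when any of them held it, whereas the shares of all windows count each window singly. The split into called and other members comes from the same data, and its link with a motif was not tested. These are matches of letters, and none was tested for binding.

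The core motif of CTCF itself was found in 1 member, STAG1, and in 0.427% of all windows. STAG1 is shown over chr3:136752404-136752628 (minus strand), with the match in capitals, 40 bases before the start and with the bases inside the GENCODE gene again left out. No match was found in the promoter window of CTCF.
STAG1: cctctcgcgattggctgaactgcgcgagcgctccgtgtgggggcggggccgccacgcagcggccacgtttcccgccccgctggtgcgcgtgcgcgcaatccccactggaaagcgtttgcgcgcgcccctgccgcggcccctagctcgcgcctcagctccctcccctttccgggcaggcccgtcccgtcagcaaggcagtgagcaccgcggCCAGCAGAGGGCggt

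Levels were compared between members per length, as TMM-normalized CPM per kilobase, and their order depended on the length used. Lengths came from GENCODE 44, whereas the authors counted with an earlier GENCODE release, so the lengths may include exons that were not counted. By the length of all annotated exons, SMC1A was highest at 36.2 ± 0.313 in 2-D (SD, n = 2) and 39.5 ± 1.78 in 3-D. It was followed by STAG2 at 27.9 ± 0.181 in 3-D, WAPL at 24.8 ± 0.337, RAD21 at 19.7 ± 0.110, PDS5A at 19.5 ± 0.0947, SMC3 at 17.2 ± 0.142, NIPBL at 16.1 ± 0.686, CTCF at 14.3 ± 0.0477, STAG1 at 8.39 ± 0.0182 and PDS5B at 7.94 ± 0.199, all as means over both libraries. Neighbours in that order did not overlap within a condition. RAD21 and PDS5A came close in 3-D, at 19.8 and 19.6 against 19.4 and 19.6, and stood in the opposite order in 2-D. By the length of the MANE Select transcript, the agreed reference transcript of a gene, RAD21 was highest at 75.8 ± 1.47 in 2-D, ahead of STAG2 at 70.8 ± 1.24, SMC3 at 43.1 ± 0.148, SMC1A at 40.4 ± 0.349, CTCF at 34.6 ± 0.212 and PDS5A at 34.2 ± 0.708, of which the last 2 overlapped in 2-D. WAPL, NIPBL, PDS5B and STAG1 came last, at 28.5, 17.5, 13.8 and 10.7. STAG2 above STAG1 and PDS5A above PDS5B held by both lengths. The exons of the members add up to 7205 bases or more, a length that 21.8% of tested genes reach, and their GC content of 36.0 to 47.2% lay below the median of tested genes, 47.4%.

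**Figure D4:**
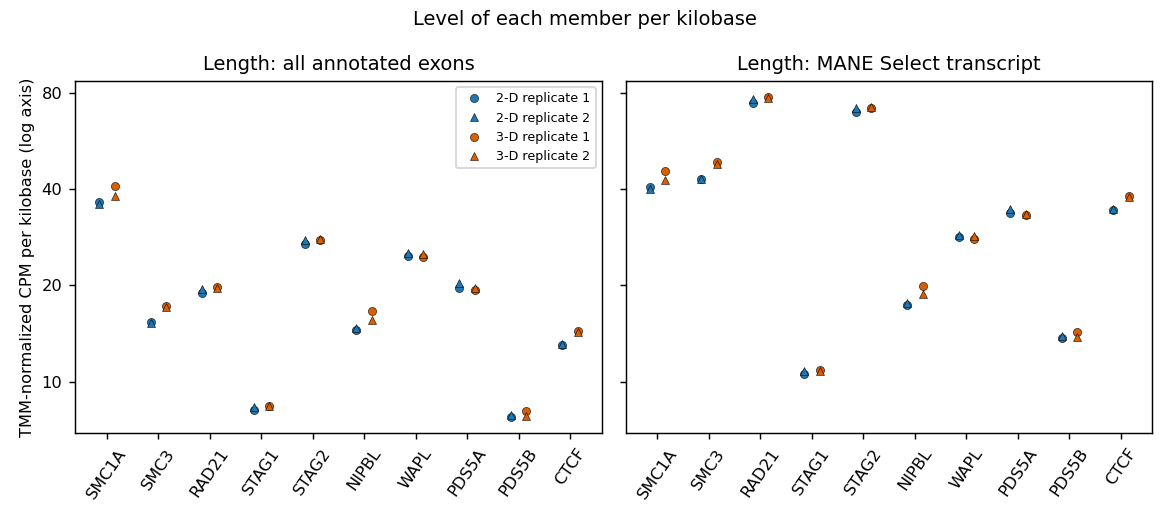
Level of each member per kilobase on a log axis in the 4 libraries, with lengths from all annotated exons on the left and from the MANE Select transcript on the right. RAD21 is in the middle of the order on the left (19.3 in 2-D) and at its top on the right (75.8), while STAG1 and PDS5B are the lowest in both.

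Ratios between members within a library do not depend on the scaling of the library. Their size depends on the length used, but their relative change between conditions does not. By MANE Select length, for instance, RAD21 at 75.8 in 2-D stood above SMC1A at 40.4, the reverse of the order by exon length. STAG2 over STAG1, per exon length, was 3.30 and 3.32 in 2-D and 3.30 and 3.34 in 3-D, so the balance of the alternative subunits differed by 0.233%, less than the spread between libraries (exact permutation test, two-sided, p = 1). PDS5A over PDS5B was 2.55 and 2.58 in 2-D and 2.41 and 2.51 in 3-D, a difference of -4.01% without overlap (exact permutation test, two-sided, p = 0.333). With 2 libraries against 2, the smallest p this test can give is 0.333, so it cannot pass 0.05 here. The following ratios were chosen after the values were seen and are given as a description. SMC3 over RAD21 was 0.808 and 0.783 in 2-D and 0.876 and 0.872 in 3-D, which is 9.88% higher without overlap. SMC1A over RAD21 was 1.91 and 1.84 in 2-D and 2.06 and 1.95 in 3-D, and CTCF over RAD21 was 0.683 and 0.670 in 2-D and 0.726 and 0.729 in 3-D. NIPBL over WAPL, the loader over the release factor, was 0.585 and 0.582 in 2-D and 0.677 and 0.626 in 3-D, or 11.6% higher. In contrast, SMC1A over SMC3 (2.37 and 2.35 in 2-D, 2.36 and 2.24 in 3-D), STAG2 over RAD21 (1.42 and 1.42, then 1.40 and 1.43) and NIPBL over MAU2 (4.59 and 4.72, then 4.99 and 4.67) overlapped between conditions.

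Of 12 further genes of the cohesin cycle, 1 was called higher and 0 lower, with a median log2 fold change of 0.051. For this list and those below, the shares over all tested genes were 4.54% called higher and 3.36% called lower. Among tested genes with a mean of at least 65.3 CPM, 18.0% were called higher. At an unadjusted p below 0.05 there were 3 higher and 0 lower, and DESeq2, limma-trend and the likelihood ratio test each called 1 higher and 0 lower. PLK1, the mitotic kinase that helps to strip cohesin from chromosome arms, had 112 and 108 CPM in 2-D and 128 and 134 CPM in 3-D. Its log2 fold change was 0.25 (SE 0.033, adjusted p = 7.45e-04), larger than that of any member. ESCO1, an acetyltransferase of SMC3, had 96.9 and 94.8 CPM in 2-D and 108 and 101 CPM in 3-D and just missed the threshold at 0.13 (SE 0.037, adjusted p = 0.0597). HASPIN, the histone H3 kinase at centromeres, had a log2 fold change of 0.15 (SE 0.062, adjusted p = 0.187). Its unadjusted p of 0.0341 in edgeR's quasi-likelihood test ranked 4105 among the 22555 tested genes. At least 4105 genes thus lay below 0.05, and the unadjusted counts here and for the lists below are to be read beside that.

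The remaining regulators stayed within 0.10 of 0 on the log2 scale. ESCO2, the other SMC3 acetyltransferase, was at -0.09 (adjusted p = 0.462), HDAC8, the SMC3 deacetylase, at 0.06 (0.730), and CDCA5, or sororin, which opposes WAPL, at -0.04 (0.566). SGO1 and SGO2, the shugoshins that guard centromeric cohesin, were at -0.0041 (0.979) and 0.05 (0.470). ESPL1, the separase that cuts RAD21, was at 0.05 (0.518), and PTTG1, or securin, its inhibitor, at -0.07 (0.315), a value that reads from 2 partial copies (62.4% of the transcript at 94.2 and 94.6% identity) may touch. DDX11, a helicase linked to cohesion, was at 0.05 (0.506), and its value is uncertain since 2 stretches on chromosome 12 match its whole transcript at 98.1% identity. No member had a copy like that of DDX11.

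The germline forms of ring subunits and of CTCF were not called. Of SMC1B, STAG3, REC8, RAD21L1 and CTCFL, 4 were tested and 0 were called, with 0 at an unadjusted p below 0.05 and 0 called by DESeq2, limma-trend or the likelihood ratio test. REC8, the meiotic kleisin, had 40.2 and 39.7 CPM in 2-D and 36.9 and 39.1 CPM in 3-D (log2 fold change -0.07, adjusted p = 0.521). STAG3 had 9.36 and 9.46 CPM in 2-D and 9.71 and 9.24 CPM in 3-D (adjusted p = 0.965). SMC1B had 18 and 19 counts in 2-D and 8 and 9 counts in 3-D, CTCFL, the testis paralog of CTCF, 12 and 25 counts in 2-D and 16 and 9 in 3-D, and RAD21L1 at most 4 counts in any library, so changes of these 3 were not detectable at this depth.

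The other complexes built on SMC proteins are condensin, which compacts mitotic chromosomes, and SMC5/6, which acts in DNA repair. Of their 14 genes, 2 were called higher and 0 lower, with a median log2 fold change of 0.011. At an unadjusted p below 0.05 there were 3 higher and 2 lower, and neither DESeq2 nor the likelihood ratio test called any. SMC6 had 138 and 142 CPM in 2-D and 153 and 152 CPM in 3-D (0.12, SE 0.030, adjusted p = 0.0304). SMC4, shared by both condensins, had 260 and 255 CPM in 2-D and 282 and 275 CPM in 3-D (0.11, SE 0.030, adjusted p = 0.0391). Both calls were lost without either 2-D library. The changes of SMC4 and SMC6 were of the same order as those of SMC3 and SMC1A, and no difference between the complexes was tested.

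Of 8 factors that share sites or loop anchors with CTCF (YY1, ZNF143, MAZ, LDB1, PATZ1, VEZF1, ADNP and CHD8), 1 was called higher and 0 lower, with a median of 0.071. At an unadjusted p below 0.05 there were 4 higher and 1 lower, and DESeq2 called 1 higher. VEZF1, at an unadjusted p of 0.0454 in edgeR's quasi-likelihood test, ranked 4604 among the 22555 tested genes. At least that many genes thus lay below 0.05. CHD8, a chromatin remodeler that binds CTCF, had 295 and 302 CPM in 2-D and 335 and 322 CPM in 3-D (log2 fold change 0.14, SE 0.032, adjusted p = 0.0210). CHD8 is also among the genes the study displays from these libraries, so it is not independent of them, and the count was 0 with the likelihood ratio test and without either 2-D library.

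Genes known to be governed by CTCF and cohesin were read next. The clustered protocadherins, neuronal adhesion genes whose promoters are chosen through CTCF-bound loops, gave 0 called of 49 tested of 53, with log2 fold changes from -0.55 to 0.59, 24 positive and 25 negative. At an unadjusted p below 0.05 there were 2 higher and 2 lower, and DESeq2, limma-trend and the likelihood ratio test called 0. The PCDHA genes share constant exons, as do the PCDHG genes, so reads may be split within each of these clusters and their single values are uncertain. H19, the RNA at the imprinted locus where CTCF insulates IGF2, had 21 and 7 counts in 2-D and 15 and 17 counts in 3-D, and its log2 fold change of 0.96 (SE 0.45, adjusted p = 0.251) did not pass the test. IGF2 had 2 and 6 counts in 2-D and 2 and 5 in 3-D, too few to be tested.

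Cohesin genes are used by dividing cells, so proliferation markers are given beside them. Of 8 such genes, 1 was called higher and 1 lower. MKI67, the proliferation antigen, had 427 and 417 CPM in 2-D and 520 and 497 CPM in 3-D (log2 fold change 0.27, SE 0.033, adjusted p = 3.63e-04). CDK1, the mitotic kinase, had 117 and 119 CPM in 2-D and 102 and 102 CPM in 3-D (-0.21, SE 0.031, adjusted p = 0.00116). The list thus moved in both directions, and its part in the changes of the members was not tested.

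Markers of other cell types were also read, and 3 of 5 tested fibroblast markers were called higher, COL3A1 at 0.73 (adjusted p = 7.04e-04), COL1A1 at 0.29 (7.79e-04) and THY1 at 0.22 (0.00453), whereas COL1A2 was at -0.04 (0.649), PDGFRB at 0.02 (0.961), and LUM and DCN, at 3 to 17 and 2 to 6 counts, were too low to be tested. COL1A2 had 324 and 316 CPM in 2-D and 300 and 324 CPM in 3-D and gave most of the summed CPM of the list in every library. That sum was 536.0 and 527.9 CPM in 2-D and 545.4 and 594.3 CPM in 3-D. The primed markers SFRP2 and SALL2 were called higher, at 0.28 (2.22e-04) and 0.21 (9.45e-04), out of 5. None of the tested trophoblast, endoderm, mesoderm or neural markers was called, with 0, 1, 2 and 0 higher at an unadjusted p below 0.05 and 0 called by DESeq2 or limma-trend, while the likelihood ratio test called 1 endoderm and 1 mesoderm marker. The part of these markers in the members' changes was not tested.

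**Figure D5:**
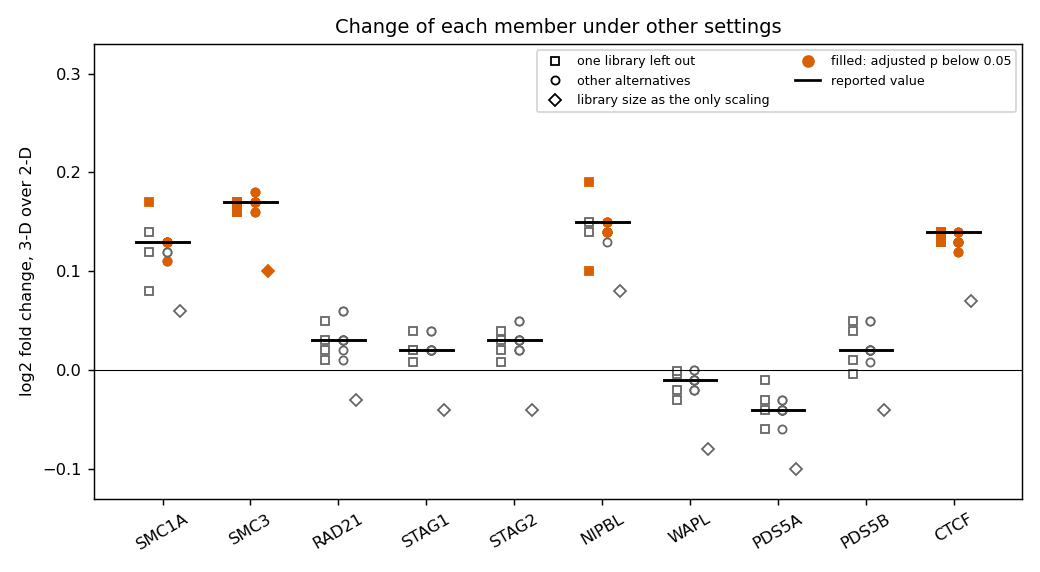
Log2 fold change of 3-D over 2-D of each member under the main setting and 17 other settings, with a black bar for the reported value, 1 point per other setting and filled points where the gene was called. Points at equal values cover each other. SMC1A, SMC3, NIPBL and CTCF stay above 0 in all 17, from 0.06 to 0.19, while RAD21, STAG1, STAG2 and PDS5B fall on both sides of 0.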

How the data were processed

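RNA-seq was made from ribosome-depleted total RNA of 2-D and 3-D grown Elf1 cells, 2 libraries each. The authors trimmed reads with Trim Galore 0.6.3, mapped them to hg38 with HISAT2 2.1.0 and counted them per gene with featureCounts 1.6.4. The deposited counts are whole numbers per library, not normalized. The deposited normalized signal, which is counts divided by DESeq2 size factors of the authors (version 2.11.40.6), was the input of the limma-trend fits only. The authors' own comparison columns (log2 fold change, standard error, statistic and p-values) were not used. Strand and multi-mapping settings are not given in the sources used here.

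The analysis ran in R 4.3.3 with edgeR 4.0.16 using filterByExpr, TMM, the legacy quasi-likelihood test with condition alone, and Benjamini-Hochberg adjustment. SE is |log2 fold change| divided by √F. Scripts were tested on simulated data. Of 60564 identifiers, 60295 were matched to GENCODE 44 by unversioned ID, and the other 269 held 0.122% of counts. Libraries of a condition differed beyond sampling noise (chi-square over degrees of freedom 2.45 and 4.39). Copies were sought with minimap2 2.31-r1302. Alternatives used DESeq2 1.42.0, limma 3.58.1, other filters, scalings and offsets, and left-out libraries, where the lone sample is assumed to vary like the others. The members and lists were chosen with earlier results of these data known. Named are all members, regulators, germline genes, H19 and IGF2, and of other lists the called genes of smallest p, at most 5, or 3 for markers. Other genes were named after their values were seen.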

Additional observations from a re-analysis of the deposited data

How the results depend on the processing

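Each member was recomputed under 17 alternatives, of which 13 leave out no library. SMC3 was called in 15 of the 17, NIPBL and CTCF in 12 and SMC1A in 9, always with a positive sign, and the other 6 members in 0. Members called higher numbered 1 with the likelihood ratio test, 1 with library size only and 2 with 2-D counts drawn down at random to 3-D depth (thinned, an alternative added after the data were seen), and 0 to 4 with a library left out, with 0 without 2-D replicate 1 or 2-D replicate 2. The cause was not tested. The counts over all genes were 651 higher and 488 lower with the likelihood ratio test, 511 and 284 with DESeq2, 514 and 1872 with library size only, 817 and 598 with thinned libraries, and 448 to 1324 higher and 326 to 1066 lower with a library left out. Condensin and SMC5/6 genes called were 0 with the likelihood ratio test, DESeq2 or thinned libraries, 1 with at least 10 counts in every library or limma-trend with a pseudocount of 1 or 5, and 0 to 3 with a library left out. Loop factors called were 0 with the likelihood ratio test, 2 with library size only or at least 10 counts in every library, and 0 to 2 with a library left out. Regulators called were 2 with library size only, no filter on low counts, or length and GC offsets, and 1 to 2 with a library left out, and 1 protocadherin was called with library size only.

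Replicates with the same number did not deviate together (correlation -0.074 over 15393 genes). That gave no sign that the numbers pair the samples, but so few libraries cannot exclude a pairing. With the number as a block, 1223 genes were called higher and 944 lower, with 2 regulators and 2 loop factors called, and with the block and the length and GC offsets together these were 2 and 2, beside 4 condensin and SMC5/6 genes.

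Signs turned as follows. With library size only, log2 fold changes were -0.03 for RAD21, -0.04 for STAG1, STAG2 and PDS5B, -0.0088 for HDAC8, -0.01 for SGO2 and ESPL1, -0.02 for DDX11 and -0.05 for STAG3. With offsets, alone or with the block, SGO1 was at 0.04, ESPL1 at -0.01, DDX11 at -0.02 and STAG3 at -0.02. With thinned libraries SGO1 was at 0.0075 and STAG3 at -0.02. With a library left out, the turned values were PDS5B -0.0035 (range to 0.05), HDAC8 -0.02 (to 0.13), SGO1 0.02 and 0.04, STAG3 -0.03, and CTCFL -0.32 and -0.18 (to 0.88), the last from at most 25 counts. Depth limits the genes with few counts, CTCFL, SMC1B, RAD21L1, H19 and IGF2.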
